A study of Mus musculus with 16 samples.

Results

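The accessible chromatin of splenic monocytes that carry much or little neuropilin-1 was compared by ATAC-seq, and every region of the resulting comparison is described here: by chromosome, by the gene to which the authors assigned it, and by loci where several neighbouring regions went the same way. The comparison holds 40796 regions assigned to 20682 genes, which is all the regions of the series' ATAC-seq table, and it rests on 10 of the series' 16 libraries. All mice were wild type C57BL/6 animals, 7 days old. Monocytes were sorted from the spleen into an Nrp1 high and an Nrp1 low group, and 5 ATAC-seq libraries of 50000 cells were made from each. The labels call the cells myeloid derived suppressor cells, and the remaining sort markers were not given. The other 6 libraries are RNA-seq of 80000 cells each from the same sort in C57BL/6J mice, 3 Nrp1 high and 3 Nrp1 low, and they serve below as a second readout. No label says whether libraries of a group came from separate animals, so the p-values measure the spread between libraries, which may be technical.

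ATAC-seq uses a transposase that inserts sequencing adapters into DNA not covered by nucleosomes, so read density follows how open the chromatin is. Neuropilin-1, the product of Nrp1, is a surface co-receptor for class 3 semaphorins and vascular endothelial growth factors and is found on several myeloid cells. Monocytes and neutrophils arise from shared myeloid progenitors, in which PU.1 and C/EBP family factors act at many enhancers and promoters. An open promoter or enhancer marks a place where factors can bind, and it is not itself a measure of transcription.

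Each region carries a fold, a p-value and a false discovery rate (FDR) in the authors' deposited table. The fold was read as a log2 value of Nrp1 high over Nrp1 low, because the table is named for that order and its tool writes log2 folds. No column states either point, so every ATAC-seq direction below rests on the name of the comparison. A region was called where its FDR was under 0.05. No values per ATAC-seq library were used, so the depth behind a region is unknown and no library could be left out. The libraries have names of 2 styles, replicates 1 and 2 against 3 to 5 in both groups, and whether that split touches the folds was not tested.

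Promoters that recur below are shown first, with the letters of 10 short motifs in capitals wherever they occur on either strand. The windows run from 250 bases before to 50 bases after the start in RefSeq (GRCm38.p6), 5′ to 3′ on the gene's own strand, and were chosen after the values were seen. The first 5 overlap a region called higher in Nrp1 high cells and the last 3 a region called lower. Camp encodes the cathelicidin antimicrobial peptide (chr9:109849407-109849706, minus strand), and S100a9 encodes a subunit of calprotectin (chr3:90695672-90695971, minus strand). Cstdc5 belongs to the stefin protease inhibitors (chr16:36367521-36367820, minus strand), Epb42 encodes a membrane protein of red cells (chr2:121036828-121037127, minus strand) and H3c6 encodes histone H3 (chr13:23562336-23562635, minus strand). Ccr2 encodes the chemokine receptor of classical monocytes (chr9:124101933-124102232, plus strand), Il6 an inflammatory cytokine (chr5:30012864-30013163, plus strand) and Mmp8 the neutrophil collagenase (chr9:7558179-7558478, plus strand).
Camp: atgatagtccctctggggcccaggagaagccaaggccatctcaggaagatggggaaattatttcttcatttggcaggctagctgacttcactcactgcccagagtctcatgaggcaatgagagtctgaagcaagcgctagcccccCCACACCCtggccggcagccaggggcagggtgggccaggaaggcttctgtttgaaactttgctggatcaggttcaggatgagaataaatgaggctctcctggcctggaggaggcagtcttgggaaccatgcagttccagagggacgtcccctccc
S100a9: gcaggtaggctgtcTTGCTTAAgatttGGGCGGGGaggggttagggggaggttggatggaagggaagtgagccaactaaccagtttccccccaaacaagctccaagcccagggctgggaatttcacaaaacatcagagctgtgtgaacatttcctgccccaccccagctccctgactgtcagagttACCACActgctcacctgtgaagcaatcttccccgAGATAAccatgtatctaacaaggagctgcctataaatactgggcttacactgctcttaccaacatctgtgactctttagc
Cstdc5: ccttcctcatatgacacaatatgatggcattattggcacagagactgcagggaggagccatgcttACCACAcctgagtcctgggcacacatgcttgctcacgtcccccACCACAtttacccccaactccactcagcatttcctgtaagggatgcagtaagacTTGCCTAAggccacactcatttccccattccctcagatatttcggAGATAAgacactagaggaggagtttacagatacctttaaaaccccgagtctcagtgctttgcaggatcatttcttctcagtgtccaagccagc
Epb42: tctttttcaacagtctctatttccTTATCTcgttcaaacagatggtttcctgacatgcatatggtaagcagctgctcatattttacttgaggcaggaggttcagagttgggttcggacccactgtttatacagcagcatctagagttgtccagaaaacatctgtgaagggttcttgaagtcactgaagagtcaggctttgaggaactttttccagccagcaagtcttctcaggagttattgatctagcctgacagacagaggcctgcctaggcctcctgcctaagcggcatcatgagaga
H3c6: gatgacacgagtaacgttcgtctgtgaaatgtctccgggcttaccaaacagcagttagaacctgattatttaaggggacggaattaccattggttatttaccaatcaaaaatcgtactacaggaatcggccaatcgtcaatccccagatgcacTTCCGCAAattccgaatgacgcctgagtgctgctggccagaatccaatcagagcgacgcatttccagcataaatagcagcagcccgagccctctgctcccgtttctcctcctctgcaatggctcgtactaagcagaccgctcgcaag
Ccr2: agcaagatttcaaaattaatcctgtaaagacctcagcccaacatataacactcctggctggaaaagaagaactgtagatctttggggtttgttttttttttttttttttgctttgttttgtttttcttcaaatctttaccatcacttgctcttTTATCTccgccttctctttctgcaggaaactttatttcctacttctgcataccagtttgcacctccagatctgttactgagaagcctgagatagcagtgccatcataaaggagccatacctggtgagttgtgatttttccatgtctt
Il6: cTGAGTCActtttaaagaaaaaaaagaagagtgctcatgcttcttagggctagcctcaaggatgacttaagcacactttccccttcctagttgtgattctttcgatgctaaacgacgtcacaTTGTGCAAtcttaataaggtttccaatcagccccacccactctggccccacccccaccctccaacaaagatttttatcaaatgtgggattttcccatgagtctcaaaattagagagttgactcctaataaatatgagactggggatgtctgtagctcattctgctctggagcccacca
Mmp8: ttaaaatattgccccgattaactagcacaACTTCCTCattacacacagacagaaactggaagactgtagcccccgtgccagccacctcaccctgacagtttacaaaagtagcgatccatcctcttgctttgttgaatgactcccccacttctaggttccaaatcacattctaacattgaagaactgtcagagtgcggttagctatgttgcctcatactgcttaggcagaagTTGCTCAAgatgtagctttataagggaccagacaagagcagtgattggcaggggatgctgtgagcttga

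In Camp the capitals mark a KLF motif (GGGTGTGG, here on the opposite strand). In S100a9 they mark a C/EBP motif (TTGCNNAA), a GC box (GGGCGGGG), a RUNX motif (TGTGGT) and a GATA motif (AGATAA). Cstdc5 holds a C/EBP, a GATA and 2 RUNX matches, Epb42 a GATA match and H3c6 a C/EBP match. Ccr2 holds a GATA match, Il6 an AP-1 (TGANTCA) and a C/EBP match, and Mmp8 a PU.1 (GAGGAAGT) and a C/EBP match. A match is a description of the letters, not a bound site.

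More regions were lower than higher in Nrp1 high cells, while the regions with the largest folds were mostly higher. By the authors' deposited values, 1046 regions were called higher, which is 2.56% of all regions, and 2036 were called lower, which is 4.99%. The median called region had a log2 fold of 0.93 among the higher regions (1.91-fold) and of -0.80 among the lower ones (1.74-fold). A log2 fold of at least 1 in size was reached by 479 of the higher and 518 of the lower regions, and a size of at least 2 by 56 and 7. Of the 100 regions with the lowest FDR 74 were higher, and so were all of the lowest 10. The balance of the 2 directions therefore moves with the threshold: 33.94% of called regions were higher, against 48.04% of those with a size of at least 1. Over all regions, called or not, 61.51% had a fold below 0 and the median was -0.09. The smallest folds just inside the threshold were 0.25 and -0.28.

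The region with the lowest FDR lay in intron 31 of 38 of Ddx60, a helicase gene of the interferon response (chr8:62014421-62014820), and was 4.06-fold higher in Nrp1 high cells in the authors' deposited table (log2 2.02, FDR 4.39e-10). It was followed by intergenic regions assigned to the predicted genes Gm15216 on chromosome X (log2 2.33, FDR 6.77e-09) and Gm29328 on chromosome 7 (log2 2.16, FDR 6.77e-09). An intergenic region 9915 bases from Cmas, which activates sialic acid, had a log2 fold of 1.82 (FDR 1.57e-06), and one 139159 bases from Mir6354 had 1.99 with the same FDR. Folds larger still but less certain were those of a promoter region of the predicted gene Gm45332 (log2 3.45, FDR 0.000378) and of a region 33216 bases from Myl1, a myosin light chain gene (log2 3.27, FDR 1.51e-05). Next in size were regions assigned to Gm6075 (2.94), Glrx3 (2.87) and Gm27452 (2.82).

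Among the lower regions the lowest FDR was at the promoter of Kif5c, a kinesin heavy chain gene (chr2:49744396-49744795, log2 -0.91, FDR 2.62e-05). Regions of the predicted genes Gm34907 (-0.73), Gm23577 (-1.70), D030025P21Rik (-1.23) and Gm44806 (-1.60) followed in the authors' deposited table. The largest falls were at regions assigned to Gm28196 (-3.11, FDR 0.00211) and Gm24626 (-2.64, FDR 0.000149). A region in intron 9 of 9 of Anxa13, an annexin gene, had -2.49 (FDR 0.0134), and regions of Gm49908 and Gm48662 had -2.30 and -2.15. Many of these regions were far from any start, and the gene named is then only the nearest one.

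Called regions were spread over the whole genome. Over the 19 autosomes the share called higher ran from 1.60% on chromosome 4 to 3.56% on chromosome 12, with a median of 2.76%. The share called lower ran from 3.45% on chromosome 8 to 6.33% on chromosome 2, with a median of 5.07%. Lower calls outnumbered higher calls on every autosome. The nearest to balance was chromosome 8, which carries Nrp1, where 45.74% of called regions were higher, and the farthest was chromosome 4 with 25.68%. The median fold of a chromosome's regions varied little, from -0.13 on chromosome 14 to -0.05 on chromosome 8. Chromosome X had 16 higher (1.66%) and 32 lower (3.31%) of 966 regions, and none of the 24 regions on chromosome Y was called.

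**Figure D1:**
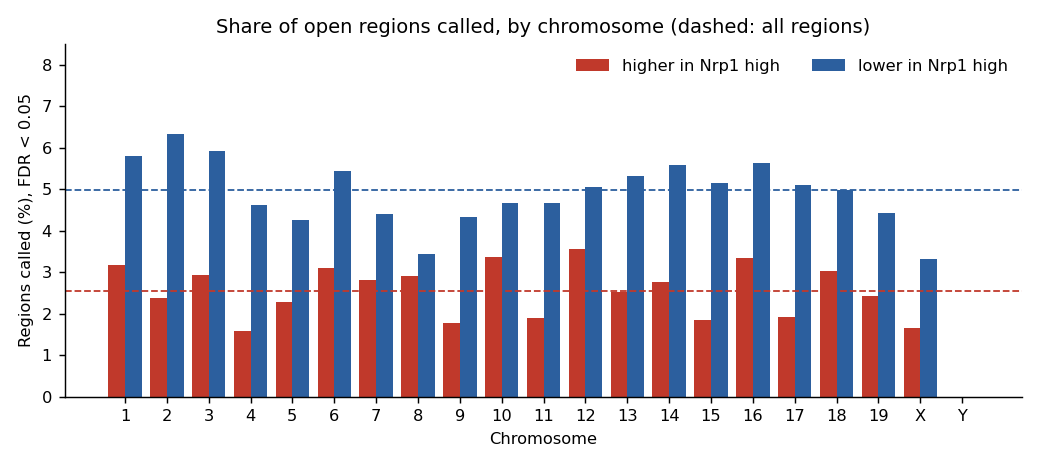
Share of ATAC-seq regions called at an FDR under 0.05 on each chromosome (y axis, percent of that chromosome's regions), higher (red) or lower (blue) in Nrp1 high cells, with the shares over all regions as dashed lines. The blue bar is the taller on every chromosome but Y, which has no called region, and the gap is narrowest on chromosome 8 (2.90% against 3.45%).

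The share of regions called was smallest near a start, in both directions. Within 1 kb of a transcript start 1.60% of 15510 regions were higher and 3.64% were lower. Between 20 and 50 kb these shares were 3.66% and 6.44% of 4997 regions. From 50 to 100 kb the higher calls were the more common, with 5.32% against 4.72% of 1504 regions, and beyond 100 kb the shares were 7.31% and 7.52% of 479 regions. Introns had 3.17% higher and 6.07% lower of 10005 regions, and distal intergenic regions had 3.48% and 5.77% of 9916. These are shares within 1 fit, and a region's signal level, which sets how easily it is called, is not known here.

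**Figure D2:**
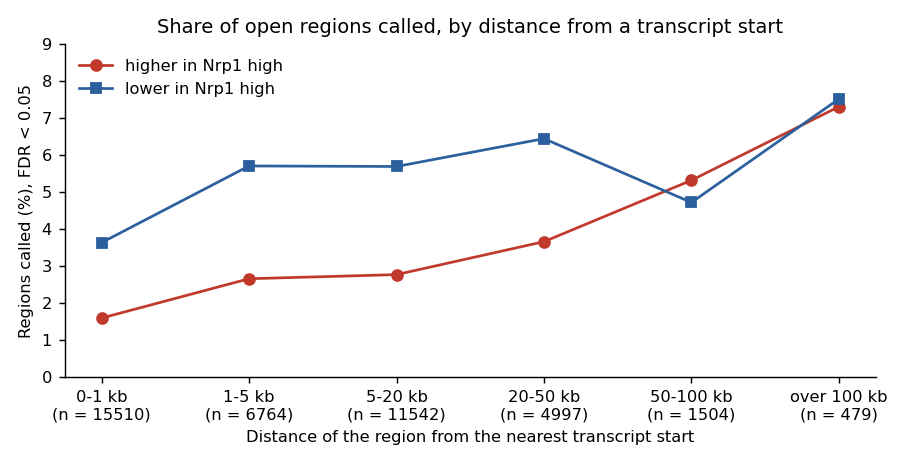
Share of regions called higher (red circles) or lower (blue squares) in Nrp1 high cells at an FDR under 0.05 (y axis, percent), by the region's distance from the nearest transcript start (x axis, with the number of regions). Both shares are lowest within 1 kb, and the red share passes the blue one from 50 to 100 kb.

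Nrp1 itself had 8 regions (ENSMUSG00000025810, chromosome 8), and they did not move as one. A region in intron 3 of 3 of a short transcript (chr8:128419897-128420296, 60500 bases past the start) had a log2 fold of 1.47, FDR 0.000351, in the authors' deposited table. A region in intron 4 of 16 of the full transcript (chr8:128431055-128431454, 71658 bases past the start) had 1.50, FDR 0.000833. Both were about as large as each other, at 2.78-fold and 2.83-fold higher in the cells sorted for more Nrp1. A region in intron 6, 94009 bases past the start, had 0.59 but was not called (FDR 0.103). Farther on, in intron 12 of 16, a region was called lower at -0.39 (FDR 0.0296). The promoter region 935 bases before the start was at -0.15 (FDR 0.516), and the region 22396 bases before it was at -0.60 (FDR 0.243). The remaining regions, in intron 2 and exon 11, were at -0.36 and 0.01 and were not called. In RNA, Nrp1 stood at 97.3, 89.8 and 111 CPM (counts scaled to a common library size) in the Nrp1 high libraries and at 20.1, 57.8 and 41.5 in the Nrp1 low ones. The groups did not overlap, and the log2 difference was 1.32 ± 0.36 (SE), but edgeR's quasi-likelihood test with Benjamini-Hochberg adjustment did not call it (adjusted p = 0.259).

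The other genes the series asks about had at most 1 called region each. Sema4a, a semaphorin gene, had 1 of 4 regions called, at its promoter, with -0.68 (FDR 0.0129) in the authors' deposited table. Mapk14, which encodes p38α MAP kinase, had 1 of 3 called, an intergenic region 8931 bases from a start with -0.58 (FDR 0.0478). None of the regions of Klf4, Nos2 or Mtor was called. A list of 23 neuropilin, plexin, semaphorin and VEGF genes leaves out some semaphorins. Of its 83 regions 4 were higher and 4 were lower, or 4.82% each, against 2.56% and 4.99% of all regions. Besides Nrp1 the higher ones were in Flt1, a VEGF receptor gene (1.25, FDR 0.00609), and Timd2 (0.51, FDR 0.0216). Regions of Sema4b (-0.97, FDR 0.000852) and Plxna3 (-0.74, FDR 0.0287) were lower. Sema4c, which is outside the list, had a lower promoter region (-1.11, FDR 0.000886).

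**Figure D3:**
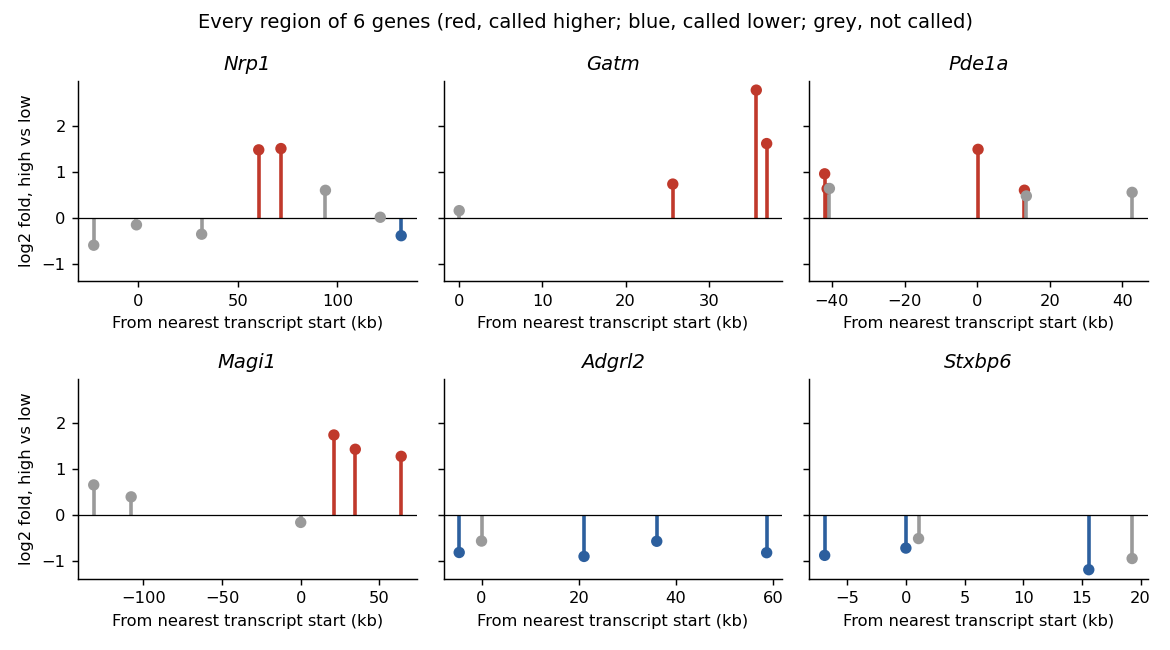
Log2 fold (y axis) of every region of Nrp1, Gatm, Pde1a, Magi1, Adgrl2 and Stxbp6 against its distance from the nearest transcript start in kb (x axis), in red where called higher, blue where called lower and grey where not called. Nrp1 has regions in both directions, Gatm has 3 called distal regions over an uncalled promoter, and all regions of Adgrl2 and Stxbp6 lie below 0.

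Few genes gathered several called regions. At least 1 region was called higher at 980 genes and lower at 1825, and 76 of these genes had both. Of the genes with a region, 11416 had only 1, and at most 49 regions were assigned to a gene, so genes with many regions had more chances. At 6 genes 3 or more regions were called and all of those called were higher, and at 31 genes 3 or more were called and all were lower; uncalled regions could lie between them. Of the 6, 4 are not predicted models: Pde1a, Gatm, Magi1 and Dgkh.

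Pde1a, a calmodulin-dependent phosphodiesterase gene, had 4 of 7 regions called higher in the authors' deposited table, and all 7 had folds above 0, from 0.47 to 1.48. The largest was 249 bases from a start (1.48, FDR 0.0204). Gatm encodes the mitochondrial enzyme of the first step of creatine synthesis, and its called regions were all distal. They lay outside the gene, past its 3′ end, and 36958, 35711 and 25674 bases from a start inside it. Their log2 folds were 1.61, 2.77 and 0.73 (FDR 2.57e-05, 1e-05 and 0.0396). The start at the promoter region was farther away than these distances. The promoter region of Gatm was at 0.15 (FDR 0.642). Magi1, which encodes a scaffold protein of cell junctions, had 3 of 6 called, at 1.28, 1.44 and 1.75, all inside the gene, while its promoter was at -0.15. Dgkh, a diacylglycerol kinase gene, had 3 of 5 called, at 1.06, 1.01 and 0.94 around internal starts, and its other promoters were at -0.57 and -0.13 and not called. In Gatm, Magi1 and Dgkh the region at the first start was thus not called.

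Gatm was the one gene of the 6 that also passed the test in RNA, and there it was lower in Nrp1 high cells. Its level was 31.3, 47.8 and 37.2 CPM in the Nrp1 high libraries and 184, 111 and 115 CPM in the Nrp1 low libraries, with no overlap. The log2 difference was -1.82 ± 0.27 (SE, adjusted p = 0.0295, edgeR's quasi-likelihood test with Benjamini-Hochberg adjustment), opposite in sign to its 3 regions. Of the 6 fits that leave out 1 library, 1 called Gatm, the one without Nrp1 low replicate 1, and the adjusted p ran from 0.0120 to 0.223. Pde1a and Magi1 were too low in RNA to be tested.

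On the lower side Adgrl2, an adhesion receptor gene, had 4 of 5 regions called in the authors' deposited table, with folds from -0.56 to -0.89, and its promoter (-0.56, FDR 0.120) went the same way without a call. Stxbp6, which encodes a SNARE-binding protein, had 3 of 5 called, led by an intronic region at -1.18 (FDR 0.00775), and all 5 were below 0. Mtus1, a microtubule-associated protein gene, had 4 of 11 called (-0.61 to -0.84), of which 3 were at promoters of different transcripts. Tbxas1, the thromboxane synthase gene, had 4 of 14 called (-0.62 to -0.86), all inside the gene. A promoter region 934 bases before another of its starts was at 0.05 and not called. Pcnx (3 of 10) and Wnk2 (3 of 6) had all their regions below 0. Nav1 (3 of 10), Chn2 (3 of 7), Nol4l (3 of 6), Rubcnl (3 of 11), Nedd4l (3 of 14) and Jmjd1c (3 of 10) had a majority below 0.

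Few genes were called in RNA at all (0.676% of those tested lower and 0.00643% higher). None of the 31 genes with 3 or more lower regions was called there, which is near those shares. Of these, 28 were tested, and their median RNA log2 difference was 0.44, against 0.01 over all 15541 genes tested. In fits without 1 library this median ran from 0.23 (without Nrp1 low replicate 1) to 0.54 (without Nrp1 low replicate 2). Stxbp6 was at 19.7, 18.3 and 27.3 CPM in Nrp1 high and 11.6, 7.14 and 13 CPM in Nrp1 low libraries, without overlap, but was not called (log2 1.04 ± 0.32 SE, edgeR adjusted p = 0.320).

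Called regions that lay close together mostly shared a direction. Of 52 neighbouring pairs of called regions at most 5 kb apart, 43 (82.7%) had the same sign, and of 253 pairs 5 to 25 kb apart 213 (84.2%) did. The share was 69.9% of 519 pairs at 25 to 100 kb, 64.3% of 1028 at 100 to 500 kb and 56.0% of 1209 beyond that. Over all neighbouring regions, called or not, Pearson's r of the 2 folds was 0.22 up to 5 kb (6941 pairs), 0.16 at 5 to 25 kb (18446 pairs) and 0.03 beyond 500 kb (847 pairs). These pairs share their 10 libraries, and r is given as a description.

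Loci were defined as runs of at least 4 called regions of 1 sign with starts at most 25 kb apart and no region of the other sign called between them. Only 3 were found, 2 higher and 1 lower. The first higher locus (chr16:48786301-48819139) lay upstream of Trat1, a T cell receptor adaptor gene outside it. It reached past the start of Retnlb, a resistin-like gene. All 4 of its regions were called, with folds of 0.85 and 1.27 assigned to Trat1 and 1.66 and 1.73 assigned to Retnlb in the authors' deposited table. In RNA Trat1 was at most 1.12 CPM in any library.

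The second higher locus lay in the histone cluster of chromosome 13 (chr13:23543394-23571492) and differed in kind, with small folds at promoters. Regions at the starts of H2bc9 (0.63, FDR 0.0106), H3c7 (0.44, FDR 0.0408), H3c6 (0.53, FDR 0.0157) and H2bc8 (0.58, FDR 0.00279) were called, and the 3 other regions in the span also had folds above 0. The histone genes were then counted as a family, a choice made after these values were seen. Of 36 regions at 32 replication-dependent histone genes 6 were higher (16.7%, against 2.56% of all regions) and none was lower, and 4 of the 6 are those of the locus. Of the 36, 16.7% were below 0, against 61.51% of all regions, and the median fold was 0.24. None of 54 of these genes tested was called in RNA, where only 0.676% of all genes tested were lower and 0.00643% higher. Their median log2 difference was 0.22. Most of their messages lack a poly(A) tail, and close copies share reads, so the RNA values are uncertain.

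The lower locus covered Ctse, which encodes the endosomal protease cathepsin E, and Rab7b, which encodes a GTPase of late endosomes (chr1:131671113-131691754). All 6 of its regions were below 0, and 4 were called: 1 in an intron of Ctse (-1.04, FDR 0.000558) and 3 near Rab7b (-1.23, -0.82 and -0.66). In RNA, Rab7b was at 32.4, 32.8 and 22.7 CPM in Nrp1 high and at 57.6, 39.1 and 50.5 CPM in Nrp1 low libraries. The groups did not overlap, and the difference was not called (log2 -0.74 ± 0.25 SE, edgeR adjusted p = 0.377). Here the sign of the RNA value was that of the regions.

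With 3 or more regions to a locus there were 10 higher and 20 lower loci. The further higher ones of lowest FDR were the distal regions of Gatm, the stretch from Panct2 to the promoter of the organic anion transporter gene Slco4c1 (0.58, 1.06 and 1.30), and loci at Gm7979 with Gm48593 (0.64 to 2.01) and Tent5c with Gm42868 (0.68 to 1.77). The lower ones were at Chn2, Dock10, Gm1968, Sema4c with Fam178b (-0.98 to -1.46) and Bach2 with its antisense gene. In the locus of Bach2, a repressor of myeloid gene programmes in lymphoid progenitors, all 4 regions were below 0 and 3 were called, from -0.86 to -1.18. When starts up to 50 kb apart were joined, a stretch of C-type lectin receptor genes also reached 4 higher regions, including Clec4n (0.48), Clec4d (0.63) and Clec4e (0.59). The promoter of Clec4b1, in the same gene family, was lower (-1.07, FDR 0.00140).

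Neutrophil genes had the largest share of higher regions among the 29 gene lists. Of 38 regions of the secondary granule and maturity genes 5 were higher (13.16%, against 2.56% of all regions) and 2 were lower (5.26%, against 4.99%). In the authors' deposited table the higher ones were the promoter of Camp (1.09, FDR 0.00244) and that of S100a9 (1.11, FDR 0.00378), an intron of Itgb2l (1.65, FDR 7.67e-06), a region 4918 bases from Chil3 (1.09, FDR 0.000588) and the promoter of Stfa2l1 (1.03, FDR 0.0129). The lower ones were the promoters of Mmp8 (-0.66, FDR 0.00989) and of Ltf, the lactoferrin gene (-0.62, FDR 0.0342). The median fold over all regions of the list was -0.03. Primary granule and progenitor genes had 1 higher and 1 lower of 39 regions.

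Monocyte, macrophage and dendritic cell genes had more lower than higher calls, as did all regions together (4.99% against 2.56%). Classical monocyte genes had 1 higher (1.41%) and 5 lower (7.04%) of 71 regions, not far from those shares: Ccr2 was lower at its promoter (-0.82, FDR 0.0104) and at a distal region (-0.80), the fibronectin gene Fn1 at its promoter (-0.69, FDR 0.00134), and Csf1r, the macrophage growth factor receptor gene, 2512 bases past a start (-0.45, FDR 0.0406). Non-classical monocyte genes had 1 higher and 6 lower (8.57%) of 70, with 81.43% of regions below 0. Macrophage genes had 1 higher and 5 lower (10.4%) of 48, among the lower ones the efferocytosis receptor gene Mertk (-1.51, FDR 0.00680), Adgre1 (-0.59, FDR 0.0146) and Marco (-0.65, FDR 0.0227). Dendritic cell markers had 1 higher and 5 lower (11.9%) of 42, with 85.71% below 0 against 61.51% of all regions. The cross-presentation receptor gene Clec9a (-0.80, FDR 0.000687) and the migration receptor gene Ccr7 (-1.08, FDR 0.00799) were lower, and Tcf4 had 2 lower intronic regions and a higher promoter (0.83).

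The list of chemokine receptor and integrin genes had only lower calls. The integrin-like gene Itgb2l, counted with the neutrophil genes above, is not on it and had a higher region (1.65). Of 91 regions of chemokine receptor and integrin genes none was higher and 10 (10.99%, against 4.99% of all regions) were lower. Besides Ccr2 and Ccr7 these were at the retention receptor gene Cxcr4 (-0.66, FDR 0.0121), at Itga6 (-0.87 and -0.56), Itgb7 (-0.83), Cd44 (-0.78), Icam1 (-0.53) and Itga4 (-0.41). Myeloid transcription factor genes had no higher and 7 lower of 129 regions, a lower share (5.43%) near that of all regions, among them regions of Bach2, Runx1 (-0.68), Ikzf1 (-0.92), Runx3 (-0.71) and Irf5 (-0.44). The mTORC1 list likewise had 3 lower of 57 (5.26%) and none higher, at the amino acid sensing genes Slc38a9 (-0.65) and Rraga (-0.75) and at Eif4ebp1 (-0.45). Cytokine receptor genes had 1 higher (1.30%) and 5 lower (6.49%) of 77, with falls at Acvrl1 (-1.24) and Il10ra (-1.03).

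Lists of innate sensing and inflammatory genes had calls in both directions, as did all regions together (2.56% higher and 4.99% lower). Pattern receptor genes had 4 higher (5.88%) and 6 lower (8.82%) of 68 regions. The promoter of Tlr4, the endotoxin receptor gene, was higher (0.50, FDR 0.00131), and regions of Tlr2 (-1.97, FDR 0.00812), Tlr1 (-0.96), Tlr9 (-0.60), Tlr13 (-0.78 and -0.62) and Clec7a (-0.57) were lower. NF-kB and cytokine genes had 1 higher (1.54%) and 4 lower (6.15%) of 65, not far from the shares over all regions. The promoter of Il6 was at -1.25 (FDR 0.00217), while a region 9129 bases from the neutrophil chemokine gene Cxcl1 was at 1.01 (FDR 0.00834). The p38 list had 3 higher (3.0%) and 6 lower (6.0%) of 100, near the shares over all regions. Interferon-stimulated genes had 2 (4.44%) and 1 (2.22%) of 45.

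A few lists had more higher than lower calls. Of 28 regions of erythroid genes 2 were higher (7.14%, against 2.56% of all regions) and none was lower (against 4.99%). The higher ones were at Car2 (0.51, FDR 0.0386) and Hbb-bs (0.56, FDR 0.0474). Only 21.43% of that list's regions were below 0, against 61.51% of all regions, and its median fold was 0.20. Krüppel-like factor genes had 2 higher (6.25%) and none lower of 32, at Klf12 (1.68, FDR 0.00147) and the promoter of Klf5 (0.49, FDR 0.00801). Of the Krüppel-like list's regions 43.75% were below 0. The AP-1 list had 1 higher of 63 (1.59%), at Jund (0.46), under the share over all regions. Arginine metabolism genes had 3 higher of 43, all of them the distal regions of Gatm, and 2 lower. Suppressive effector genes had 2 higher and 2 lower of 63 and a median fold of -0.12, with the largest fold at a region 19653 bases from Nt5e, the gene of the adenosine-forming enzyme CD73 (2.11, FDR 0.000107).

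Markers of B, T and NK cells, of megakaryocytes and of basophils, mast cells and eosinophils had no higher calls, and their lists are short. The neutrophil, erythroid and dendritic cell lists, given above, did have higher calls. Against 4.99% of all regions, none of 12 B cell regions was lower, 2 of 17 T cell regions (11.8%), 1 of 10 NK cell regions (10.0%), 2 of 26 megakaryocyte regions (7.69%) and 3 of 21 basophil, mast cell and eosinophil regions (14.3%). Fetal programme genes had 3 lower of 29, cell cycle genes 3 lower of 68, and MHC class II genes 1 each way of 30. In RNA the cells of both groups carried classical monocyte messages, with Ly6c2 at 2018 ± 252 CPM in the Nrp1 high group and at 2069 ± 503 CPM in the Nrp1 low group (SD, n = 3). Cd79a, a B cell receptor gene, was at 94.9 ± 2.15 and 133 ± 30.6 CPM (SD, n = 3). Camp, a gene of maturing neutrophils, was at 643 ± 62.5 and 8417 ± 2238 CPM (SD, n = 3). Of the 24 neutrophil granule and maturity genes 17 were called lower in Nrp1 high cells in RNA, against 105 of all 15541 genes tested (0.676%). Without Nrp1 high replicate 3 no gene was called by edgeR. The list's summed level was 8135 to 9396 CPM in the Nrp1 high and 46043 to 76559 CPM in the Nrp1 low libraries, with no member at 0 throughout. In bulk libraries fewer cells of a type and less RNA per cell cannot be told apart. Whether a difference in neutrophil content also touches the ATAC-seq folds was not tested.

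**Figure D4:**
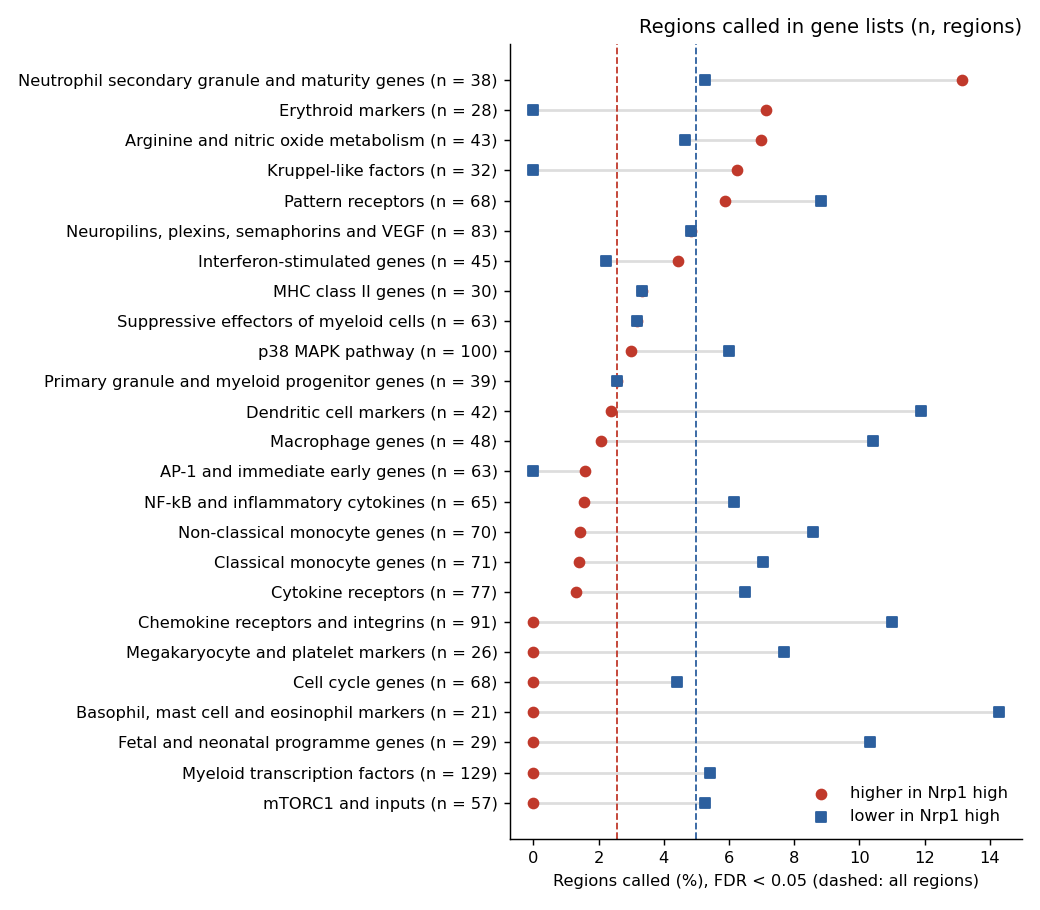
Share of each gene list's regions called higher (red circles) or lower (blue squares) in Nrp1 high cells (x axis, percent at an FDR under 0.05), for lists with more than 20 regions, with the shares over all regions as dashed lines; where the shares are equal the square covers the circle. Neutrophil granule and maturity genes have the largest red share (13.16%), and chemokine receptor and integrin genes are at 0 against 10.99%.

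Genes that passed in both readouts mostly had opposite signs. In RNA 105 of 15541 genes tested (0.676%) were lower in Nrp1 high cells and 1 (0.00643%) was higher, by edgeR's quasi-likelihood test at an adjusted p under 0.05. Of the 105 lower genes 89 had ATAC-seq regions, 188 in all, and 20 of these regions (10.64%) were called higher while 3 (1.60%) were called lower, against 2.56% and 4.99% of all regions. Over all 188 regions the median fold was 0.02, against -0.09 over every region of the table, and over the 110 within 3 kb of a start it was also 0.02. By gene, 15 had only higher regions, 2 (Hdc and Ltf) had only lower ones, and Hvcn1, a proton channel gene, had 1 of each. The 1 gene higher in RNA, the glucuronidation enzyme gene Ugt1a6a, had a promoter region that was lower (-0.68, FDR 0.0134). The 2 sets of libraries are separate, and the ATAC-seq sign rests on the name of the table. Were that contrast coded the other way, the 15 genes and Ugt1a6a would have the same sign in both readouts, and Hdc and Ltf opposite ones.

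The granule and stefin genes show the pattern by library. Camp was at 644, 705 and 580 CPM in the Nrp1 high and at 9452, 5848 and 9950 CPM in the Nrp1 low libraries, a log2 difference of -3.71 ± 0.29 (SE, edgeR adjusted p = 0.00416), while its promoter had an ATAC-seq fold of 1.09. Cstdc5 was at 697, 605 and 580 CPM against 6273, 4575 and 7864 CPM (-3.31 ± 0.28), and its promoter was at 1.72 (FDR 0.000676). S100a9 was at 1467, 929 and 1096 CPM against 8425, 6557 and 12749 CPM (-2.99 ± 0.33), and its promoter was at 1.11. In each of these genes every Nrp1 low library lay above every Nrp1 high library in RNA. They were picked because they passed the RNA test, so this separation follows from the choice and adds no support. The stefin genes are close copies whose reads can be split between them, which makes single values uncertain. Of 9 stefin genes tested 8 were lower in RNA, against 0.676% of all genes tested. Of 5 regions in their cluster on chromosome 16 the 2 of Cstdc5 and Stfa2l1 were higher and none was lower. Over all regions these shares were 2.56% and 4.99%.

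Itgb2l, a β2 integrin-like gene, was at 14.8, 19.8 and 22.3 CPM against 210, 132 and 142 CPM (-3.09 ± 0.27), with its intronic region at 1.65. Chil3, a chitinase-like gene, was at 199, 238 and 199 CPM against 2845, 1789 and 2293 CPM (-3.45 ± 0.25). The transporter gene Slco4c1 was at 3.25, 4.80 and 5.12 CPM against 15.7, 27.8 and 15.8 CPM (-2.17 ± 0.36), with its promoter at 1.30. The RNA groups were apart in all of them, which again follows from picking genes that passed in RNA. The rest of the 15, besides Gatm, had RNA differences from -1.73 (Mgst2) to -3.04 (4930438A08Rik). They included the grancalcin gene Gca, with 2 of 4 regions higher (1.00 and 1.29) and -2.51 in RNA, the BAFF gene Tnfsf13b (1.83 and -2.17), Plscr1 (1.33 and -1.82) and Klf5 (0.49 and -1.75).

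The exceptions went down in both readouts. Ltf was at 244, 347 and 295 CPM against 2090, 1564 and 2013 CPM (-2.68 ± 0.24, edgeR adjusted p = 0.00416), and its promoter was at -0.62. Hdc, which encodes the histamine-forming enzyme, was at 7.23, 10.9 and 9.82 CPM against 46.1, 31.0 and 35.0 CPM (-2.0 ± 0.28), and its promoter was at -1.22 (FDR 0.00785).

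**Figure D5:**
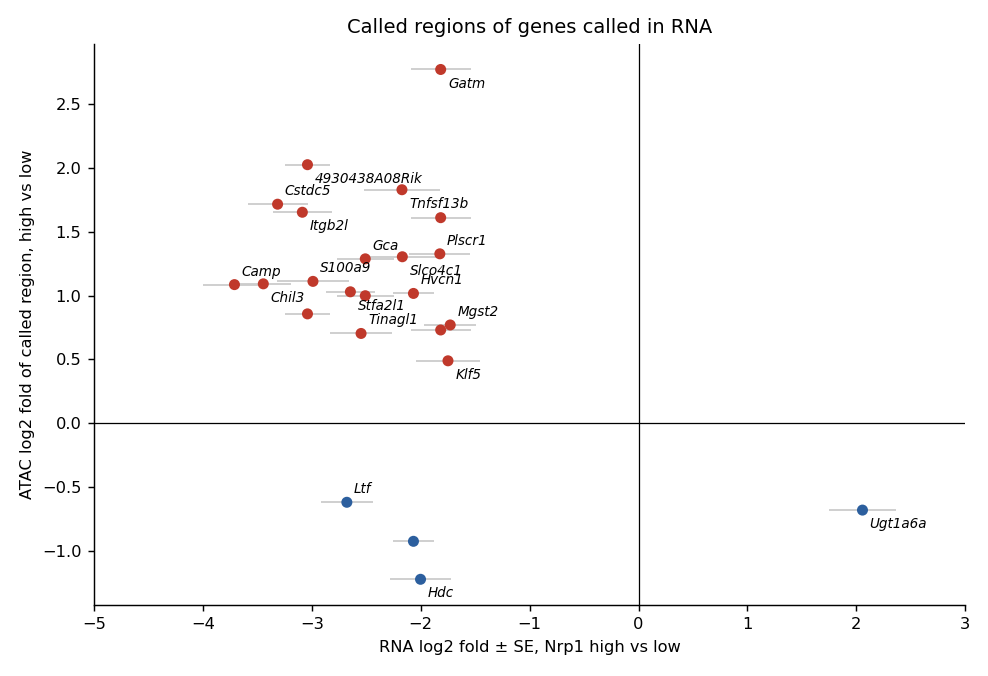
ATAC-seq log2 fold of each called region (y axis) against the RNA log2 difference of its gene with its SE (x axis), Nrp1 high against low, for the genes called in RNA that have a called region. Most points lie at the upper left, higher in ATAC-seq and lower in RNA; Ltf, Hdc and 1 region of Hvcn1 lie at the lower left and Ugt1a6a at the lower right.

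Read from the regions, the same held in smaller measure. Of 433 tested genes with higher regions only, 15 (3.46%) were lower in RNA and none was higher, and their median RNA log2 difference was -0.10. Of 984 tested genes with lower regions only, 2 were lower and 1 was higher, with a median of 0.19 and 61.38% above 0. Of 10312 tested genes whose regions were not called, 71 (0.69%) were lower and the median was -0.02. Across 10372 genes the fold of the promoter region and the RNA log2 difference had Spearman's rho of -0.08 and Pearson's r of -0.13, given as a description since genes are not replicates. Most genes with a called region thus had no call in RNA. Genes that missed the RNA threshold went either way. Ccr2 had opposite signs: it was at 840, 675 and 914 CPM in Nrp1 high and 368, 628 and 393 CPM in Nrp1 low libraries, without overlap. Its log2 difference was 0.81 ± 0.26 (SE, edgeR adjusted p = 0.356), and its promoter was at -0.82. Marco (region at -0.65, RNA at -1.30) and Treml4 (-0.88 and -1.33), also without overlap and not called in RNA, had the same sign in both.

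These counts depend on the RNA libraries and tool. With DESeq2 326 genes were lower in RNA, of which 29 had only higher and 16 only lower regions, and 77 were higher, of which none had only higher and 13 only lower regions. Without Nrp1 high replicate 3 no gene was called by edgeR (909 at an unadjusted p under 0.05), without Nrp1 high replicate 1 there were 28 lower genes (7 with only higher and 1 with only lower regions), and without Nrp1 low replicate 3 there were 29 (8 and 1). Without Nrp1 high replicate 2 there were 49 (9 and 1). Without Nrp1 low replicate 2 there were 80 (10 and 2), and the 1 gene then higher in RNA had regions called higher and none called lower.

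The promoter windows shown at the start were compared with all others that overlap a region by at least 150 bases. Of 32817 RefSeq promoter windows, 7027 did so: 113 at a higher region, 198 at a lower one and 6716 at a region that was not called. The median GC content was 57.7% at higher, 63.5% at lower and 62.0% at uncalled promoters. The PU.1 letters were in none of the 113 promoters at higher regions. This allows a share of up to 2.65% by 3 counts, or 3.29% by the upper limit of the 95% Wilson interval. They were in 19 of the 198 at lower regions (9.60%, 95% Wilson interval 6.23 to 14.5), in 3.90% of uncalled ones and in 3.20% of all promoters. Among the holders were Tlr9, Tlr1, Mmp8, Itgb7 and the inflammasome gene Nlrp1a.

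The GATA letters were in 14 of the 113 promoters at higher regions (12.4%, interval 7.53 to 19.7), as in those of Cstdc5, S100a9 and Epb42 printed above. They were in 5.05% of promoters at lower regions, 5.29% of uncalled ones and 11.2% of all promoters, which include closed ones. The C/EBP letters were in 12.4%, 10.1% and 8.41% of higher, lower and uncalled promoters, the RUNX letters in 14.2%, 13.1% and 12.8%, and the GC box in 35.4%, 31.8% and 36.1%. KLF letters were in 5.31%, 2.53% and 4.14%, AP-1 letters in 3.54%, 5.05% and 4.72%, and EGR letters (GCGGGGGCG, which can overlap a GC box) in 3.54%, 6.57% and 5.46%. MITF and TFE letters (TCACGTGA) were in 2.65%, 0.51% and 2.23%, and NR4A letters (AAAGGTCA) in 0.88%, 1.01% and 0.77%. The intervals cover counting error only, and called regions away from promoters are not part of these shares.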

How the data were processed

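ATAC-seq regions, log2 folds, p-values and FDR values were used as the authors deposited them; per the labels and the submitters' processing notes, Trimmomatic, BWA, Picard, MACS2, DiffBind, edgeR and ChIPseeker on GRCm38 were among the tools, but settings, peak pooling and any shift for transposase insertion are not stated. The table is named for edgeR, and the log2 scale and direction were taken from the tool and the table's name. Of the regions, 99.16% are 400 bases wide, and each belongs to its nearest transcript; recomputing the FDR from the p-value by Benjamini and Hochberg's method moved no region by more than 0.000268.

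For RNA, the authors deposited a table of estimated counts per gene (HISAT2 and StringTie, per the submitters' processing notes), with 23395363 to 35127433 counts per library; the kit marks no strand, so overlapping genes share reads. These were tested with edgeR 4.0.16 (R 4.3.3; filterByExpr, TMM, quasi-likelihood, robust) in 3 against 3 libraries, with adjustment over 15541 genes, and the script was tested on simulated data. CPM values use the TMM library sizes. DESeq2 1.42.0, other scalings, no filter, a replicate block and leaving out each library were alternatives, as were other FDR, fold, distance and region-number limits for the ATAC-seq calls.

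The members, the 29 gene lists and the rules were chosen with earlier results of these data known. Named genes were the series' subjects, up to 12 genes per direction with 3 or more regions all called one way (predicted models left out), up to 6 loci per direction (taken from those of 3 or more regions, as 3 reach 4), the 5 regions of lowest FDR and 5 of largest fold per direction, and up to 4 members per list; others were chosen after their values were seen, as were the printed promoters, the 150-base overlap, the gene families, the library-total scaling and the removal of longer motifs, which left 10. Regions could not be read from a genome here, so motifs were searched in RefSeq promoter windows, none of them on chromosome 18. Intervals are 95% Wilson intervals, and a count of 0 allows 3 counts.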

Additional observations from a re-analysis of the deposited data

How the results depend on the processing

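The ATAC-seq counts followed the threshold, and the balance turned at strict limits: 139 higher and 83 lower regions had an FDR under 0.001. Higher and lower regions numbered 428 and 572 at an FDR under 0.01, 1740 and 3628 at an FDR under 0.1, and 479 and 518 with a log2 fold of at least 1 in size. Genes with 3 or more higher or lower regions numbered 1 and 2 at an FDR under 0.01; genes with 2 or more numbered 56 and 161, and with 5 or more 0 and 0. Higher and lower loci numbered 0 and 0 at a gap of 10 kb, 4 and 8 at 50 kb, 0 and 0 at an FDR under 0.01, and 10 and 20 with 3 or more regions. At an FDR under 0.01 the autosomes ran from 0.49% to 1.71% for higher and from 0.79% to 1.87% for lower calls. At that limit 23 promoters lay at higher and 58 at lower regions. GATA letters were in 21.7% of the 23 and 5.17% of the 58, and RUNX letters in 30.4% and 13.8%. PU.1 letters were in none of the 23 and in 6.90% of the 58. Fewer regions pass a stricter threshold, by construction.

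RNA calls were less stable. Higher genes numbered 4 with no filter and 77 with DESeq2, and 0 to 5 without 1 library; lower genes numbered 326 with DESeq2 and 0 to 120 without 1 library, with 0 without Nrp1 high replicate 3. Library totals in place of TMM, a scaling chosen after seeing the data, gave 1 and 76. Among genes with 3 or more higher regions, 0 were lower in RNA with library totals and 0 to 1 without 1 library, and their median RNA log2 difference ran from -0.80 (without Nrp1 high replicate 3) to 0.60 (without Nrp1 high replicate 2), against 0.27 over 4 tested genes. With genes taken by a called region within 3 kb of a start, 9 with higher regions were lower in RNA, and of those with lower regions 1 was higher and 2 were lower. The cause was not tested.

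The RNA replicate numbers showed no sign of a pairing: deviations of same-numbered libraries had r of -0.24, -0.24 and 0.02, and no library correlated best with its own number. Deviations from the mean of 3 libraries are tied to each other. Whether same-numbered libraries shared a sort or an animal therefore cannot be told from these values. With the replicate block 0 genes were higher and 0 lower (943 at an unadjusted p under 0.05 in edgeR), and 0 genes with 3 or more higher regions were lower in RNA. ATAC-seq values per library were not used here, so neither a block nor a left-out library could be tried on them.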
